A study of Apis mellifera with 3 samples.

Results

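The cytosolic ribosomal proteins of the honeybee are represented in these data by 95 of 21441 transcript sequences. They were chosen by text: the best protein match had to contain the words ribosomal protein and none of mitochondrial, 28S, 39S, kinase, methyltransferase or acetyltransferase. The 95 sequences carry 74 protein names. Of them, 58 sequences (43 names) belong to the large subunit, which holds the L proteins and P0, P1 and P2, and 37 sequences (31 names) to the small subunit, which holds the S proteins and SA. RNA came from worker bees of Apis mellifera carnica Pollmann, all full sisters from artificially inseminated queens, in 3 groups that the labels call winter bee, spring bee and retired bee. The labels give an age after emergence from the comb of 3 days to the winter bees, 6 days to the spring bees and 9 days to the retired bees, and the sources used here do not settle whether these days are the true ages of the bees. Season, task and labelled age differed together and cannot be told apart. Each group was 1 pool of 30 bees and 1 library (n = 1), so no difference has a replicate check, no test was possible, and every interval covers counting error only. The sampled tissue is labelled as hypopharyngeal glands, the head glands that secrete royal jelly in nurse bees, while the design text speaks of pooled heads.

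Reads that mapped uniquely came to 3.85 M for the winter bees, 3.29 M for the spring bees and 3.18 M for the retired bees, spread over 20385, 19772 and 19574 sequences. At these depths, 3 reads on a sequence of 1 kb correspond to 0.780, 0.912 and 0.944 RPKM (reads scaled for the length of the sequence and the total of the library), in that order. The 57 sequences of the gland's own products, royal jelly proteins and glucose oxidase, took 8.0% of the reads of the winter library, 22.1% of the spring library and 19.7% of the retired library. The 2 products differed in course. Royal jelly proteins summed to 54825 RPKM in winter, 164657 in spring and 130703 in retired bees. Glucose oxidase summed to 5967, 5807 and 9014 RPKM, highest in retired bees. Of the markers of other tissues, neuron markers reached at least 10 RPKM in 10 of 15 sequences and summed to 1030 RPKM in winter, 838 in spring and 882 in retired bees. Photoreceptor markers (13 of 20) summed to 335, 287 and 435 RPKM and muscle markers (16 of 36) to 724, 579.8 and 777 RPKM. Fat body markers (2 of 9) summed to 87.4, 34.4 and 20.9 RPKM. Of the defining markers, synapsin, bruchpilot, opsin, arrestin, myosin heavy chain, troponin and vitellogenin were all read in every library, and no sequence matched arylphorin. Their part in the differences below was not tested. A lower level of a transcript in a pool and fewer cells that hold it cannot be told apart.

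A ribosome joins a large subunit, which forms peptide bonds and has a tunnel through which the new chain leaves, to a small subunit, which reads the messenger RNA. Nearly every ribosomal protein is present in a single copy per ribosome, so cells make them in matched amounts, and their messenger RNAs are among the most abundant of a growing or secreting cell. In the hypopharyngeal gland of nurse bees, ribosomes on the endoplasmic reticulum make the secreted jelly proteins.

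Ribosomal protein transcripts were abundant and their levels per length spanned a wide range. The median over the 95 sequences was 230.3 RPKM in the winter library, 224 RPKM in the spring library and 197 RPKM in the retired library. Over all sequences read in every library the medians were 16.4, 13.99 and 13.2 RPKM. The median level of the large subunit sequences was 225, 195 and 169.7 RPKM and that of the small subunit sequences 281, 246 and 206 RPKM. Of the 95 sequences, 84 were read in all libraries and 75 had at least 10 RPKM in each, while 18 stayed under 10 RPKM in every library. The most abundant was L38, known in mice for its need in the translation of certain Hox messenger RNAs (sequence TC22941), with 1433 RPKM in winter, 1106 in spring and 1054 in retired bees. S6, the small subunit protein that S6 kinases phosphorylate (TC12663), followed with 1259, 1087 and 959 RPKM. L7A (TC14117) had 883, 880.0 and 749 RPKM. S3, which lines the entry of the messenger RNA channel (TC13254), had 906, 833 and 681 RPKM, and its neighbour S2 (TC12908) had 811, 856 and 717 RPKM. These 5 had the highest mean levels, and in each the retired library was the lowest. The lowest mean levels among sequences read in every library were those of L13 (BI510391, 0.874 RPKM), S24 (TC16753, 1.48 RPKM), L21 (DB752482, 1.95 RPKM), L10 (TC17812, 2.12 RPKM) and L10A (DB757517, 4.33 RPKM). Each of these 5 shares its protein name with a sequence that was read more often.

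**Figure D1:**
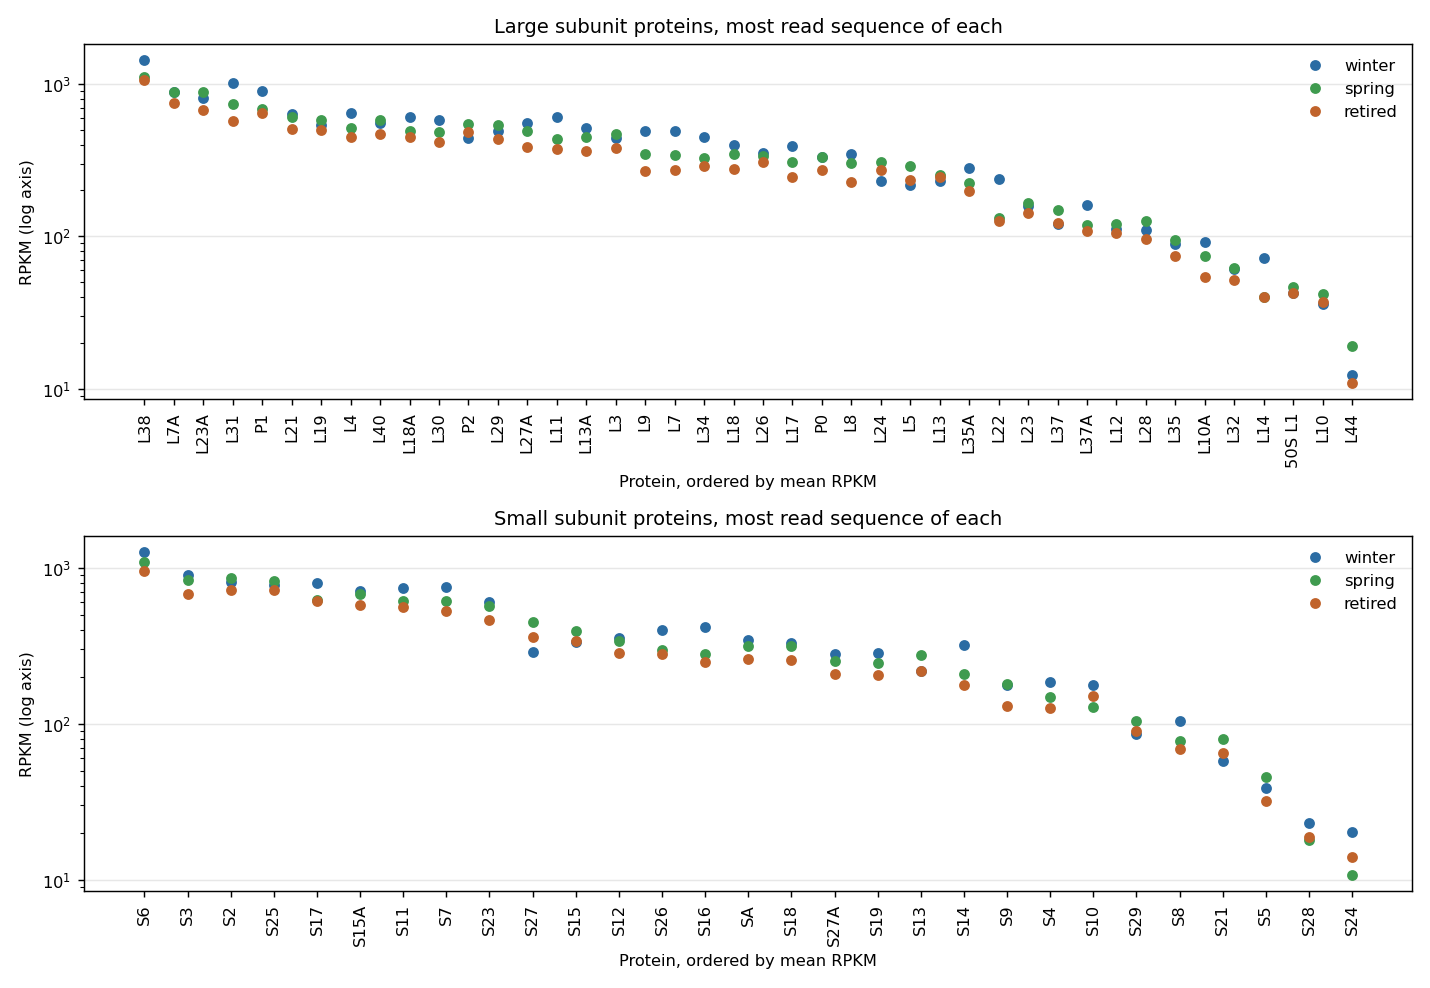
Level in RPKM (log axis) of the most read sequence of each ribosomal protein name with at least 10 RPKM in all libraries, with 1 colour per library (n = 1 each). Drawn are 42 names of the large subunit, the bacterial-type 50S L1 among them, and 29 of the small subunit. The 3 points of a protein lie close together compared with the distance between proteins, from L38 at 1433 RPKM in the winter library down to about 11 RPKM for L44 and S24.

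How much of a transcript was covered by reads went with its level. The 57 sequences covered over at least 0.5 of their length in every library had median levels of 418, 347 and 287 RPKM in winter, spring and retired bees, against 10.7, 9.37 and 7.38 RPKM for the other 38. Across the members read in a library, Spearman's rho between RPKM and covered fraction was 0.83 in winter (93 sequences), 0.85 in spring (89) and 0.81 in retired bees (86). These points share a library and its depth, and sequences of 1 protein share sequence. The authors counted only uniquely mapped reads, so reads that match several copies are missing from these values. A total of 55 sequences were the only one with their protein name, with a median of 392, 330.0 and 274 RPKM and a median covered fraction of 0.901, 0.885 and 0.887. The other 40, which share 19 protein names, had medians of 24.3, 23.1 and 17.2 RPKM and covered fractions of 0.231, 0.247 and 0.224. Low levels of these names are therefore uncertain, and a level compared between proteins is sounder where the sequence is well covered.

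**Figure D2:**
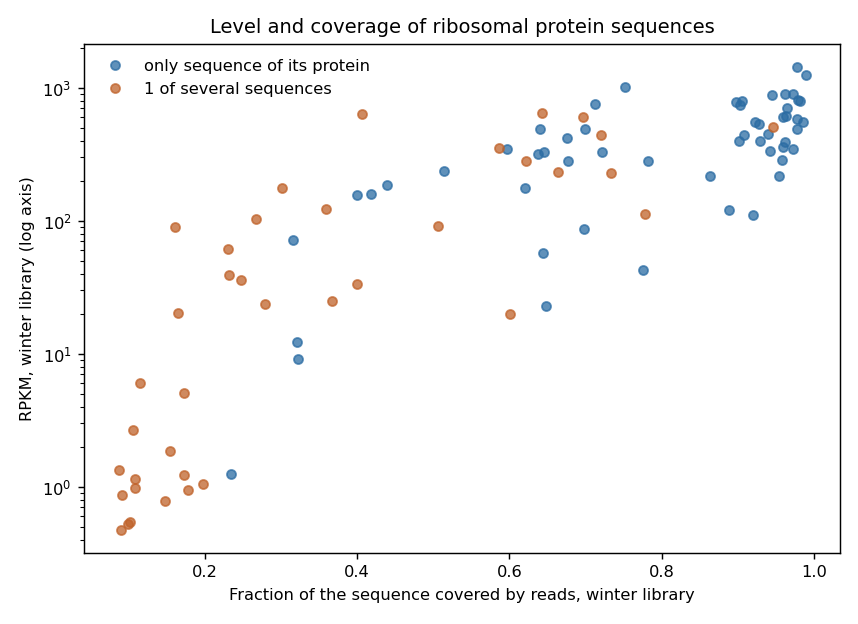
Level in RPKM (log axis) against the fraction of the sequence covered by reads in the winter library, 1 point per ribosomal protein sequence, coloured by whether it is the only sequence of its protein or 1 of several. Sequences that share a protein name (median covered fraction 0.231) lie mostly at the lower left and single sequences (median 0.901) at the upper right.

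In most of the 19 names the reads sat on 1 sequence. In the winter library the range within a name was 0.945 to 232 RPKM for L13, 1.05 to 512 for L13A, 2.69 to 635 for L21, 0.975 to 230.3 for L24, 1.15 to 354 for L26, 0.527 to 642 for L4, 1.22 to 112 for L12, 0 to 440.2 for P2 and 0 to 600.1 for S23. It was 0.787 to 281 RPKM for L35A, 0.870 to 36.1 for L10, 5.11 to 91.7 for L10A, 0.544 to 60.9 for L32, 6.05 to 103.9 for S8, 0.476 to 20.2 for S24 and 1.33 to 25.03 for S3A. Only L35 (33.8 and 89.5 RPKM), S5 (38.9 and 23.6 RPKM) and S10 (121.9 and 176 RPKM) had both of their sequences above 20 RPKM in that library. S3A, which sits at the messenger RNA exit side of the small subunit, rested on 45 reads in winter, 10 in spring and 10 in retired bees. A further sequence whose orthology entry names S3A (TC14515), but whose best match is a fatty acyl-CoA reductase, had 119.9, 80.1 and 66.3 RPKM and is no member. Text also brought in 2 proteins of the bacterial type. The first, 50S L1 (TC14183), had 42.6, 46.5 and 42.3 RPKM and the second, 30S S11 (TC16065), 9.10, 8.04 and 7.54 RPKM, both far below the median of the set. Another 8 sequences have an orthology entry of a cytosolic ribosomal protein but a best match named hypothetical, and the rule leaves them out. They include abundant ones such as L36 (NP9553436) with 926, 1050 and 946 RPKM and L27 (TC19498) with 937, 748 and 625 RPKM. Their share of reads and their median ratios are given beside the members below.

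The share of all reads that fell on ribosomal proteins stepped down from winter to spring to retired bees. It was 2.11% in the winter library (81029 reads, Wilson 95% interval 2.09 to 2.12), 1.91% in the spring library (62899 reads, 1.90 to 1.93) and 1.62% in the retired library (51399 reads, 1.604 to 1.632). Per library total, the sum was 1.10-fold lower in spring than in winter (exact conditional binomial 95% interval 1.09 to 1.11), 1.18-fold lower in retired than in spring bees (1.17 to 1.20) and 1.30-fold lower in retired than in winter bees (1.29 to 1.32). The first of these directions turned when libraries were scaled to a median ratio of 1 over the sequences read in every library (1.09-fold higher in spring) or to totals that leave out royal jelly proteins with the 50 top sequences of each library (1.06-fold higher). The other directions held under both, at ratios of 0.866 and 0.850 for retired over spring and 0.942 and 0.903 for retired over winter. These scalings multiply every ratio by 1.20 and 1.17 for spring over winter, by 1.02 and 1.01 for retired over spring, and by 1.23 and 1.18 for retired over winter. The large subunit took 1.23%, 1.12% and 0.941% of reads and the small subunit 0.875%, 0.793% and 0.676%. Their ratios stood close together, at 0.910 (0.898 to 0.923) and 0.906 (0.892 to 0.921) for spring over winter, 0.841 (0.828 to 0.854) and 0.853 (0.837 to 0.868) for retired over spring. The 8 sequences known as ribosomal proteins by orthology only took 0.181%, 0.166% and 0.145% of reads, in the same order of libraries. Reads of a PCR-amplified library are not independent molecules, so all such intervals are too narrow by an unknown amount.

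Between spring and winter bees the ribosomal proteins went apart from each other, some higher and more lower. The measure was log2 of (RPKM + 1) in one library over (RPKM + 1) in the other, for sequences that reached 10 RPKM in either library of the pair. The added 1 RPKM understates differences of low sequences. A sequence near 10 RPKM could be kept through only the library where it was higher, among the members as among all sequences. Over the 77 members kept the median was -0.12, against -0.26 over all 12038 sequences, and scaling to a median ratio of 1 turned it to 0.14. The median of the 45 large subunit sequences was -0.06 and that of the 32 small subunit sequences -0.16, a difference of 0.10, and both turned above 0 (0.19 and 0.10) under that scaling. The difference between the subunits turned to -0.083 over sequences covered over at least 0.5 of their length and was 0.029 over those with at least 100 reads in the pair. A total of 48 members (62.3%) were lower in spring by any amount, 25 of the large and 23 of the small subunit, where 73.3% of all sequences were lower. With either scaling, 19 of the 77 turned from lower to higher. At least 1.5-fold lower were 6 members (7.79%), against 19.5% of all sequences, and at least 1.5-fold higher were 3 (3.90%), against 5.27%. At least 20% lower were 23 members (29.9%), against 43.7% of all sequences, and at least 25% higher were 8 (10.4%), against 10.5%. With scaling to a median ratio of 1 the counts past 1.5-fold became 8 higher and 2 lower, against 10.03% and 8.53% of all sequences, and with the other totals 7 and 4, against 9.32% and 9.82%. The balance of higher and lower members therefore rests on the scaling. Of the 7 sequences kept that are known by orthology only, 4 were lower, 1 of them at least 1.5-fold, and 1 was at least 1.5-fold higher. Their median was -0.23, and 0.029 and -0.0056 under the scalings.

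The members that were higher in the spring library included parts of both subunits. S27, a zinc finger protein of the small subunit (TC21703), had 287 RPKM in winter, 449.8 in spring and 361 in retired bees, and was 1.57-fold higher in spring than in winter (95% interval 1.39 to 1.77). L24, which forms a bridge to the small subunit (TC16284), had 230.3, 308 and 274 RPKM and was 1.34-fold higher (1.18 to 1.52). S13 (TC18734) had 217, 274 and 219 RPKM and was 1.26-fold higher (1.12 to 1.43). In all of them the winter library was the lowest, and both scalings would widen these differences. S21 (TC22187), with 57.7, 79.9 and 65.2 RPKM, was 1.38-fold higher on fewer reads (1.03 to 1.86), and the orthology entry of this sequence names a subunit of the respiratory chain. Beyond 1.5-fold by the measure with the added 1 RPKM stood also L35A (DB733754, 1, 11 and 5 reads in winter, spring and retired bees) and L44 (TC22488, 30, 40 and 22 reads), which rest on few reads. The main L35A sequence (TC17105) went the other way, 1.26-fold lower in spring than in winter (1.10 to 1.43). Summed over both sequences, L35A was 1.22-fold lower (1.07 to 1.39).

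On the lower side, L22, an RNA-binding protein of the large subunit (TC16021), had 236 RPKM in winter, 132 in spring and 125.7 in retired bees, 1.79-fold lower in spring than in winter (95% interval 1.52 to 2.11). A second sequence with an orthology entry of L22 and no named match (TC22772) had 106, 69.8 and 84.3 RPKM. Both L22 sequences were highest in the winter library. L14 (TC18264), with 72.0, 40.1 and 39.8 RPKM, was 1.79-fold lower (1.34 to 2.41). S14, at the platform of the small subunit where the messenger RNA leaves (TC17941), had 318, 209 and 178 RPKM and was 1.52-fold lower (1.38 to 1.68). S16, of the small subunit's head (TC17659), had 418, 278 and 248 RPKM and was 1.503-fold lower (1.37 to 1.65). L7 (TC13694) had 493, 339 and 274 RPKM and was 1.45-fold lower (1.34 to 1.58). Each of these stayed lower in spring under both scalings, since their ratios of 0.558 to 0.688 remain below 1 when multiplied by 1.20. The remaining 2 past 1.5-fold were low sequences, S24 (TC15456, 42, 19 and 24 reads) and S3A (BP875096, 42, 8 and 10 reads).

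**Figure D3:**
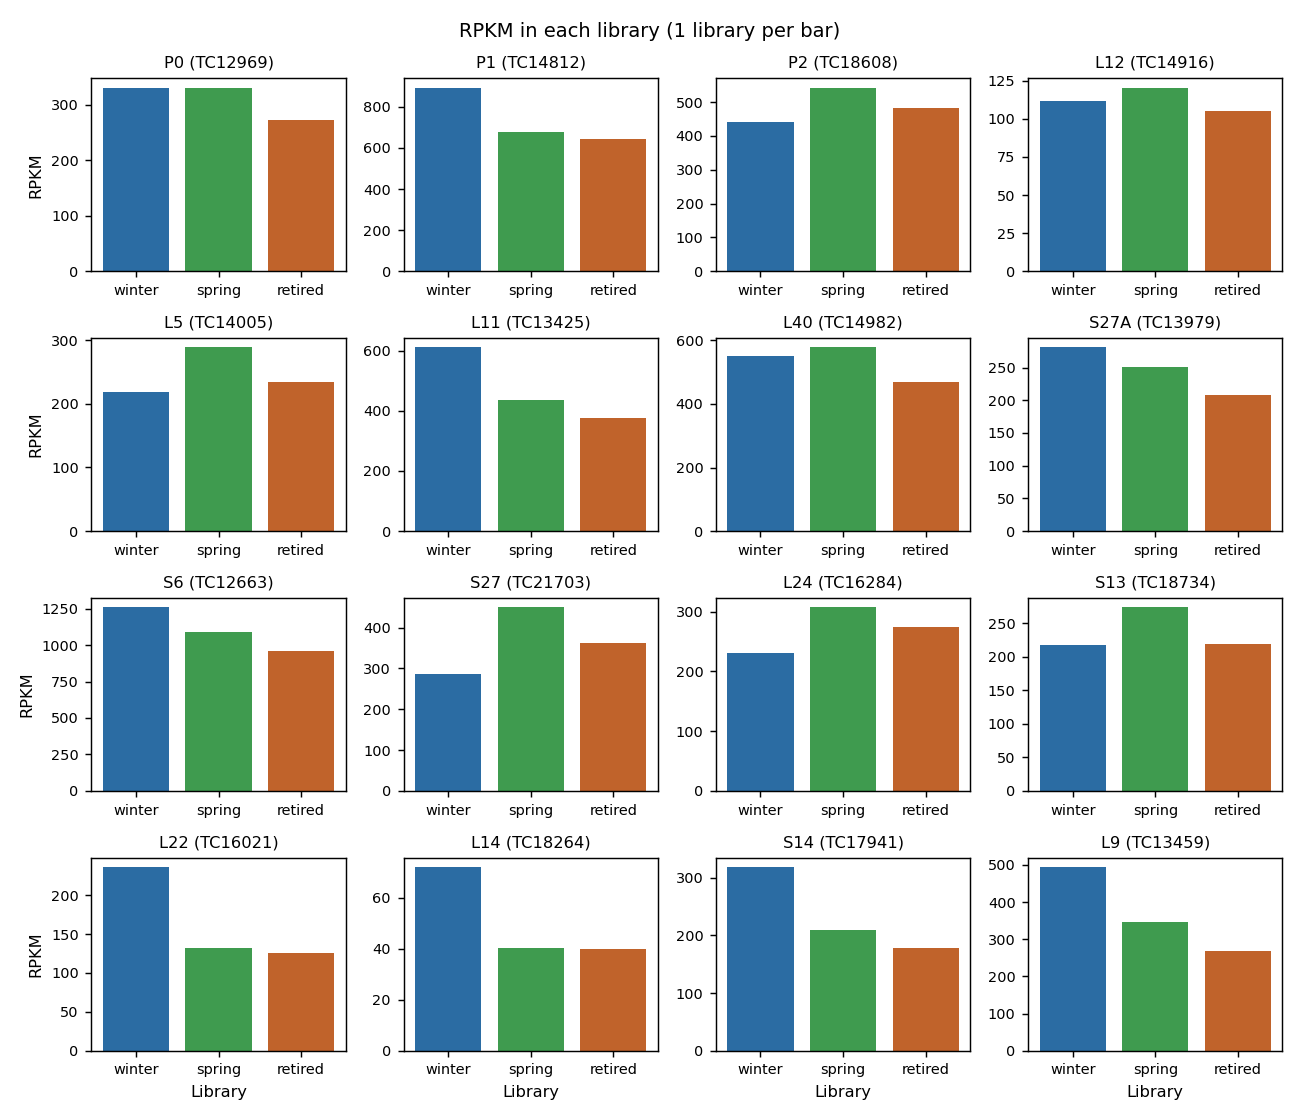
Level in RPKM of 16 named ribosomal proteins, 1 bar per library (n = 1 each, axis from 0), covering the stalk, the 5S particle, the ubiquitin fusions, S6 and members at the ends of the range. S27, L24, S13, L5 and P2 have their highest bar in the spring library, while L22, L14, S14 and L9 have it in the winter library.

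Retired bees differed from spring bees in another way: nearly all members were slightly lower, by similar amounts. Of 76 members kept, 72 (94.7%) were lower in the retired library by any amount, against 53.4% of all 11413 sequences, with 44 of 45 in the large and 28 of 31 in the small subunit. The median was -0.25, which was also the median of each subunit, against -0.02 over all sequences, and the scalings left it at -0.22 and -0.24. Under them 71 and 72 of the 76 were lower. The sequences known by orthology only followed this less closely: 5 of the 7 kept were lower (53.4% of all sequences), with a median of -0.15. The L22 sequence TC22772 had a ratio of 1.21 (95% interval 0.951 to 1.54) and S20 (TC17156) one of 1.01 (0.832 to 1.22), and both intervals include 1. The interquartile range of the members was 0.14 on the log2 scale, against 0.43 for all sequences, and in spring over winter the same range was 0.47 against 0.54. Among the 67 members with a mean of at least 100 reads per library, for which counting error is smaller, 66 (98.5%) were lower in retired bees, against 51.5% of the 5503 sequences with that many reads, and their interquartile range of 0.13 stood beside 0.32. The SD of the log2 ratio over these 67 was 0.12, while it was 0.29 in spring over winter.

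Few members passed a size threshold. At least 1.5-fold lower in retired than in spring bees were 3 members (3.95%), against 7.28% of all sequences, and none was 1.5-fold higher, against 5.74%. At least 20% lower were 16 members (21.1%), against 18.8% of all sequences, and 1 (1.32%, S24 on few reads) was at least 25% higher, against 14.3%. The 3 past 1.5-fold were L35A (DB733754), L44 and S5 (TC15598), all with 55 or fewer reads in each of these libraries. The difference was thus a small one shared by many members rather than a large one in some.

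Members with at least 100 reads in the pair of libraries show how far the ends of this narrow range lay. S10, of the small subunit's head, has a pair of sequences that went opposite ways. The first (TC12573) had 121.9, 109 and 74.3 RPKM in winter, spring and retired bees and was 1.46-fold lower in retired than in spring bees (95% interval 1.22 to 1.75). The other (TC15360) had 176, 128 and 152 RPKM and was 1.18-fold higher (1.02 to 1.36). Reads covered only 0.359 and 0.302 of these sequences in winter, so how uniquely mapped reads split between them is uncertain, and summed over both S10 was 1.05-fold lower (0.943 to 1.18). S9, which borders the messenger RNA entry with S2 and S3 (TC12931), had 178, 181 and 131 RPKM and was 1.39-fold lower (1.24 to 1.55). L10A (TC15317), with 91.7, 74.6 and 54.1 RPKM, was 1.38-fold lower (1.10 to 1.73). S5 (TC13662), with 38.9, 45.5 and 31.8 RPKM, was 1.43-fold lower (1.06 to 1.94), and L28 (TC21122), with 109.9, 127 and 95.7 RPKM, 1.33-fold lower (1.07 to 1.65). At the other end L13 (TC12776), at 232, 253 and 246 RPKM, had a ratio of 0.971 (0.869 to 1.08). S17 (TC18669), at 801, 624 and 609 RPKM, had a ratio of 0.976 (0.893 to 1.07). L14 had 0.991 (0.700 to 1.40) and L35 (TC20475), at 33.8, 25.9 and 28.6 RPKM, 1.10 (0.794 to 1.54). The other L35 sequence (TC21196) had a ratio of 0.795 (0.611 to 1.03), and summed over both L35 had 0.903 (0.737 to 1.11). The intervals of L13, S17, L14 and both L35 sequences include 1.

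**Figure D4:**
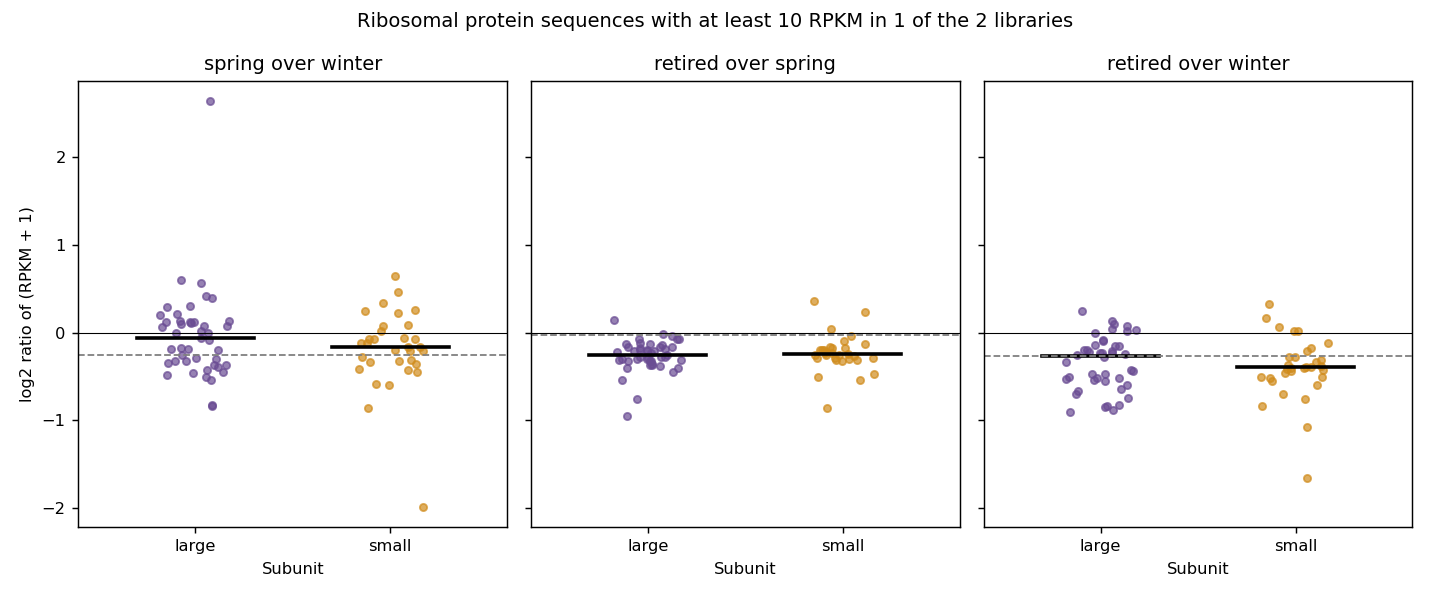
Log2 ratio of (RPKM + 1) of each ribosomal protein sequence that reached 10 RPKM in either library, by subunit, for each comparison (1 library a group). Black lines are medians of the members and dashed lines the median of all sequences: retired over spring forms a tight band with both subunits at -0.25, while spring over winter spreads widely around -0.06 (large) and -0.16 (small), which both turn above 0 when libraries are scaled to a median ratio of 1.

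Retired against winter bees shares its libraries with the other comparisons and is given for its size. Of 76 members kept, 64 (84.2%) were lower in retired bees by any amount, 37 of 44 in the large and 27 of 32 in the small subunit, against 76.6% of all 11955 sequences. With scaling to a median ratio of 1, 20 of them turned to higher and 44 stayed lower, and with totals without the most abundant sequences 13 turned and 51 stayed lower. The median was -0.39, against -0.26 over all sequences, and -0.09 and -0.16 under the scalings. For the 7 sequences kept that are known by orthology only it was -0.27, with 5 lower (76.6% of all sequences). At least 1.5-fold lower were 16 members (21.1%), against 20.8% of all sequences, and none was higher, against 3.96%. At least 20% lower were 42 (55.3%), against 43.6%, and at least 25% higher was 1 (1.32%, S27), against 8.25%. The count of 16 lies at the background, and it was 4 with a median ratio of 1 (against 8.35% of all sequences) and 8 with the other totals (against 10.4%). The median of the large subunit was -0.27 and that of the small subunit -0.40, and with scaling to a median ratio of 1 the large subunit's turned to 0.02 while the small subunit's was -0.10. The order of the subunits turned with no minimum level (difference of -0.0067) and over sequences covered over at least 0.5 of their length (-0.040).

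Among members with at least 100 reads in the pair of libraries, the following lay farthest apart in retired against winter bees. S5 (TC15598), at 23.6, 20.3 and 10.7 RPKM in winter, spring and retired bees, was 2.21-fold lower (95% interval 1.42 to 3.55). The other S5 sequence (TC13662) was 1.22-fold lower (0.908 to 1.65), and summed over both S5 was 1.49-fold lower (1.16 to 1.91). Reads covered only 0.279 and 0.232 of these sequences in winter, so how uniquely mapped reads split between them is uncertain. L22 was 1.88-fold lower (1.59 to 2.23) and L14 1.81-fold lower (1.35 to 2.45). L9 (TC13459), with 494, 347 and 268 RPKM, was 1.85-fold lower (1.69 to 2.02) and stepped down in both intervals, 1.42-fold (1.32 to 1.54) and then 1.30-fold (1.18 to 1.43). L7 was 1.80-fold lower (1.65 to 1.97). At the top, S27 was 1.26-fold higher (1.11 to 1.43), L24 1.19-fold higher (1.04 to 1.36), P2 1.10-fold higher (1.004 to 1.20), S21 1.13-fold higher (0.825 to 1.54) and L5 1.07-fold higher (0.979 to 1.17), so that only for the first 3 did the interval lie above 1.

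Taking the 3 libraries by order, 43 of the 75 members with at least 10 RPKM in each (57.3%) had winter above spring above retired, against 32.1% of all 9803 such sequences. The spring library was the highest for 28 members (37.3%; 19 of 44 large, 9 of 31 small), against 20.4% of all. The retired library was the lowest for 59 (78.7%; 36 large, 23 small), against 42.5% of all. Under scaling to a median ratio of 1 these counts became 23, 47 and 40 of 75 members, with 14.9%, 32.3% and 25.6% of all sequences, and under the other scaling 24, 47 and 47 of 75, with 18.8%, 32.6% and 31.2% of all.

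Within the ribosome, the stalk showed unequal members. The stalk is the flexible arm of the large subunit that draws in translation factors, in which P0 anchors pairs of P1 and P2 and L12 lies at the base. P0 (TC12969) had 330.4, 330.0 and 271 RPKM in winter, spring and retired bees. P1 (TC14812) had 893, 679.6 and 645 RPKM, highest in winter. P2 (TC18608) had 440.2, 543 and 483 RPKM, highest in spring. P1 and P2, which act as a pair, thus went opposite ways between winter and spring: P1 was 1.31-fold lower in spring (95% interval 1.22 to 1.41) and P2 1.23-fold higher (1.13 to 1.34), and neither direction turned under the scalings. Per length, P1 stood above P2 in every library, by the widest margin in winter. P0 had a ratio of 0.999 (0.935 to 1.07) for spring over winter and was 1.22-fold lower in retired than in spring bees (1.13 to 1.31). L12 (TC14916), with 112, 120.4 and 105 RPKM, had ratios of 1.08 (0.908 to 1.28) and 0.871 (0.724 to 1.05), which include 1. In retired against spring bees P1 was 1.05-fold lower (0.973 to 1.14) and P2 1.12-fold lower (1.03 to 1.23), so that all 4 stalk proteins lay on the lower side there, with intervals that include 1 for P1 and L12.

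A similar split appeared in the 5S particle, in which L5 and L11 bind the 5S ribosomal RNA before it is built into the large subunit. L5 (TC14005) had 219, 288 and 234 RPKM and L11 (TC13425) 611, 437 and 377 RPKM in winter, spring and retired bees. In spring against winter bees L5 was 1.32-fold higher (95% interval 1.21 to 1.44) and L11 1.40-fold lower (1.29 to 1.51), and both directions held under the scalings. In retired against spring bees both were lower, L5 1.23-fold (1.13 to 1.34) and L11 1.16-fold (1.06 to 1.28).

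The ubiquitin fusions L40 and S27A, which are made as 1 chain with ubiquitin and then cut, belong to different subunits. L40 (TC14982) had 550.4, 578 and 470.4 RPKM and S27A (TC13979) 281, 251 and 208 RPKM. In retired against spring bees they were lower by 1.23-fold (95% interval 1.12 to 1.35) and 1.21-fold (1.08 to 1.35). In spring against winter bees L40 had a ratio of 1.05 (0.964 to 1.14) and S27A was 1.12-fold lower (1.01 to 1.23), a direction that turned under the scalings. S6 was 1.16-fold lower in spring than in winter (1.10 to 1.21), which turned under scaling to a median ratio of 1 (ratio 1.03), and 1.13-fold lower in retired than in spring bees (1.08 to 1.19), which did not turn.

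By place in the ribosome, the 10 kept sequences of the exit tunnel and its rim had a median log2 ratio of -0.34 for spring over winter, with 7 of 10 lower, against 73.3% of all sequences, and so at the background. It was the only one of these groups whose median stayed below 0 under both scalings (-0.08 and -0.11). Among its members, L31 borders the tunnel exit and L23A is the docking site of the signal recognition particle and of the nascent chain complex. L31 (TC18067) had 1014, 742 and 574 RPKM in winter, spring and retired bees and was 1.37-fold lower in spring than in winter (95% interval 1.28 to 1.46). L23A (TC12633) had 803, 879 and 677 RPKM and was 1.10-fold higher (1.04 to 1.16). The 15 sequences of the small subunit's head had a median of -0.16 and the 17 of its body -0.21, which turned to 0.10 and 0.05 with a median ratio of 1. In retired over spring the medians were -0.21 for the tunnel, -0.26 for the head, -0.24 for the body, -0.26 for the 5S particle and -0.18 for the stalk. Every one of these groups lay below the -0.02 of all sequences in that comparison.

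Genes that build ribosomes or work beside them stood higher in the spring library than the ribosomal proteins did. Of 79 sequences for ribosome biogenesis, which process ribosomal RNA and assemble subunits in the nucleolus, 56 were kept, and their median log2 ratio for spring over winter was 0.19, against -0.12 for the ribosomal proteins and -0.26 for all sequences. At least 1.5-fold higher were 13 of them and lower were 2, where 5.27% and 19.5% of all sequences were. The homolog of the ribosome biogenesis regulatory protein (NP9549937) had 8.66 RPKM in winter, 30.4 in spring and 15.7 in retired bees and was 3.51-fold higher in spring than in winter (95% interval 2.36 to 5.34). Nucleolar complex protein 2 (NP9546344), with 3.90, 10.3 and 5.90 RPKM, was 2.63-fold higher (1.71 to 4.13). Both were under 10 RPKM in winter and were kept in this pair only through the spring library, where they were high. Members kept in this way also enter the counts and medians of this list, here and in retired over spring. On the lower side were an RRP42-like exosome subunit (TC14949), with 39.05, 22.8 and 18.9 RPKM, 1.71-fold lower (1.18 to 2.50), and nucleostemin 4 (TC12463), with 29.3, 21.5 and 18.1 RPKM, 1.36-fold lower (1.10 to 1.70). These are low levels beside those of the ribosomal proteins: the list's median level was 12.2, 16.5 and 12.9 RPKM. In retired over spring its median was -0.26, close to the -0.25 of the ribosomal proteins, with 48 of 56 lower (53.4% of all sequences), 9 of them at least 1.5-fold (7.28% of all) and 1 at least 1.5-fold higher (5.74% of all). That 1 was a second RRP42-like sequence (TC17100), with 26.6, 16.4 and 26.6 RPKM on 30 spring and 47 retired reads, at a ratio of 1.62 (1.004 to 2.66). Among those with at least 100 reads in the pair, the lowest there were the same regulatory protein homolog, 1.93-fold lower (1.37 to 2.76), and an RRP43-like exosome subunit (TC17775) with a ratio of 0.517 (0.332 to 0.792). Under the same limit the highest were an IMP3-like protein (NP9553001, 1.10, 0.770 to 1.57) and an RRP5 homolog (NP9549667, 1.06, 0.764 to 1.48), whose intervals include 1. In retired over winter the median was 0.03, with 27 of 53 above 0 and 26 below. At least 1.5-fold lower were 4, against 20.8% of all sequences, and 5 were at least 1.5-fold higher, against 3.96%, among them a cell growth-regulating nucleolar protein (TC21238, 22.5, 53.4 and 42.2 RPKM, 1.87-fold higher, 1.38 to 2.55) and a nucleolar protein 16-like sequence (TC13981, 1.57-fold higher, 1.06 to 2.35).

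The 12 sequences of the factors that bind ribosomes, the nascent polypeptide-associated complex and the signal recognition particle among them, had a median of 0.38 for spring over winter, against -0.26 over all sequences, with 3 lower (73.3% of all) and 3 at least 1.5-fold higher (5.27% of all). SRP72, a protein of the particle that brings ribosomes making secreted proteins to the endoplasmic reticulum (TC18966), had 35.03, 57.7 and 48.8 RPKM and was 1.65-fold higher in spring than in winter (95% interval 1.42 to 1.91). A BTF3 homolog, a relative of the beta chain of the nascent chain complex (TC14744), had 37.0, 64.9 and 49.9 RPKM and was 1.76-fold higher (1.36 to 2.27). The alpha chain of that complex (TC15142), with 62.1, 88.5 and 85.8 RPKM, was 1.38-fold higher in retired than in winter bees (1.18 to 1.63). SRP54 (TC14458) departed from this pattern, with 150.1, 143 and 169.8 RPKM, a ratio of 0.954 (0.874 to 1.04) for spring over winter and a value 1.19-fold higher in retired than in spring bees (1.08 to 1.30). The list's median was -0.18 for retired over spring. For retired over winter it was 0.27, with 3 of 12 lower, against 76.6% of all sequences. At least 1.5-fold lower was 1, against 20.8% of all, and at least 1.5-fold higher was 1, against 3.96%. Among those with at least 100 reads in the pair, the lowest there were the SRP receptor's beta subunit (TC16944) and SRP9 (TC13641). Their ratios were 0.931 (0.703 to 1.23) and 0.931 (0.713 to 1.21).

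Mitochondrial ribosomal proteins, which serve the organelle's own translation, moved apart from the cytosolic ones between winter and spring as well. Their 68 sequences took 0.144%, 0.159% and 0.143% of reads in winter, spring and retired bees, a ratio of 1.10 (95% interval 1.06 to 1.14) for spring over winter where the cytosolic sum had 0.908 (0.899 to 0.918). Either scaling multiplies both ratios by the same factor, so the distance between them does not depend on it. The median log2 ratio of the 57 kept was 0.13, with 12 at least 1.5-fold higher and 1 lower, where 5.27% and 19.5% of all sequences were. Mitochondrial S35 (NP9552670), with 17.9, 33.5 and 24.3 RPKM, was 1.87-fold higher (1.36 to 2.58) and mitochondrial S14 (NP9550596) 1.76-fold higher (1.33 to 2.35). Among those with at least 100 reads in the pair, the lowest were mitochondrial S29 (0.731, 0.535 to 0.995) and mitochondrial L12 (TC13195, 0.785, 0.544 to 1.13). In retired over spring the medians were -0.18 for the mitochondrial and -0.25 for the cytosolic proteins. Under the same limit, the lowest mitochondrial ratios there were those of S29 (0.591, 0.391 to 0.884) and S33 (NP9547847, 0.652, 0.450 to 0.936). The highest were those of L14 (1.49, 1.01 to 2.20) and L49 (NP9548483, 1.26, 0.838 to 1.90). Among those with at least 100 reads in the pair, mitochondrial S29 (TC14290), with 22.4, 16.4 and 9.67 RPKM, was the lowest in retired against winter bees at 2.31-fold lower (1.598 to 3.41), and mitochondrial L14 (TC17972), with 18.8, 21.5 and 32.0 RPKM, the highest at 1.71-fold higher (1.17 to 2.51).

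**Figure D5:**
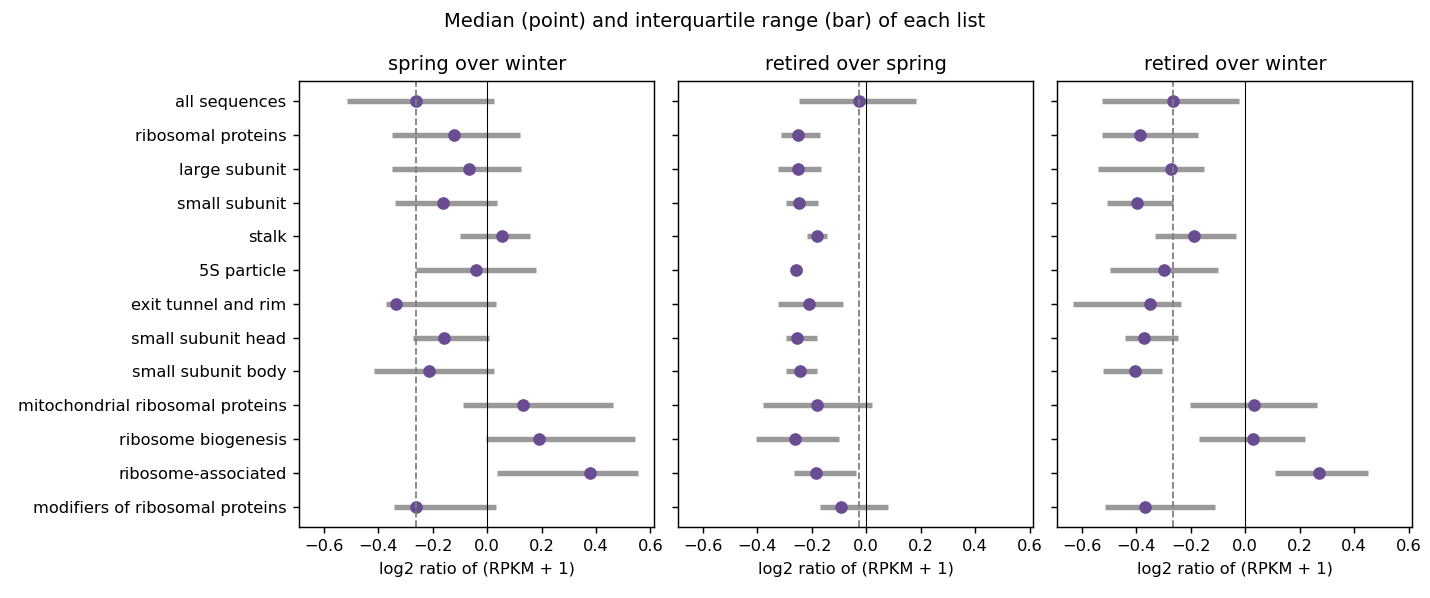
Median (point) and interquartile range (bar) of the log2 ratio of (RPKM + 1) for groups of ribosomal proteins and for related lists in each comparison, with the median of all sequences as a dashed line (1 library a group). In spring over winter the lists for biogenesis (0.19), ribosome-associated factors (0.38) and mitochondrial ribosomal proteins (0.13) lie above the ribosomal proteins (-0.12, turning to 0.14 with a median ratio of 1, where the 3 lists stand at 0.44, 0.63 and 0.38), and in retired over spring the medians of these lists and of the ribosomal proteins lie between -0.26 and -0.18.

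The sequences that the rule set aside as modifiers were 6 whose matches are named ribosomal protein S6 kinase, of several types. Whether each of them acts on S6 was not tested. Their median over the 5 kept was -0.26 for spring over winter, equal to that of all sequences, and -0.09 for retired over spring. S6 kinase alpha-5 (NP9549789) had 38.9, 22.4 and 23.7 RPKM in winter, spring and retired bees and was 1.74-fold lower in spring than in winter (95% interval 1.46 to 2.07). S6 kinase beta-1-like (TC18994), of the type that acts below TOR to phosphorylate S6, had 65.0, 51.0 and 45.2 RPKM and was 1.27-fold lower (1.08 to 1.51), and 1.44-fold lower in retired than in winter bees (1.20 to 1.72). A delta-1-like kinase (TC18039) had a ratio of 1.04 (0.816 to 1.33) for spring over winter and was 1.37-fold lower in retired than in spring bees (1.04 to 1.80).

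Over the members kept, Spearman's rho of the log2 ratio with mean level was -0.09 for spring over winter, 0.08 for retired over spring and -0.04 for retired over winter, and with covered fraction 0.11, -0.01 and 0.13. With length it was -0.14, -0.10 and -0.18. These weak values over members that share libraries are given as a description. Among sequences as abundant as the ribosomal proteins, the 1213 others with a mean of at least 100 RPKM, the median log2 ratio was -0.28 for spring over winter and 0.05 for retired over spring, where the ribosomal proteins stood at -0.12 and -0.25. Of the members, 36 sequences could be matched to 32 genes of a RefSeq gene table, and no pair of these genes lay side by side.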

How the data were processed

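Messenger RNA selected with oligo-dT beads was fragmented, made into cDNA, amplified by PCR and read on an Illumina HiSeq machine, per the labels' protocols. The authors deposited 1 table per library with, per the file headers, the length of each transcript sequence, its RPKM, its best protein match, an orthology entry, the count of reads mapped to it uniquely and its coverage, a fraction of the length. The deposited RPKM values equal the deposited counts scaled by sequence length and library total. The aligner, the counter and the origin of the sequences were not given in the sources used here.

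The tables were joined by sequence name, with a sequence not listed taken as 0. With 1 library per group no count model could be fitted, so folds of named sequences are ratios of reads per library total with exact conditional binomial (Clopper-Pearson) 95% intervals, and shares have Wilson intervals. Log2 ratios used RPKM + 1 and sequences that reached 10 RPKM in either library. Named members were taken from a rule: per comparison, the 5 highest and 5 lowest with at least 100 reads in the pair of libraries, the 5 highest and lowest by level, the stalk, the 5S particle, the ubiquitin fusions, S6, names with several sequences, and the 2 highest and lowest of each related list. Of those from the related lists, the text gives only a part. Further sequences (L31, L23A, TC22772, TC17156, L36, L27, TC14515, TC17100 and low sequences past a threshold) were named after their values were seen. The members and lists were chosen with earlier results of these data known. Alternatives were pseudocounts of 0.1 and 5, minima of 1 RPKM or none, both scalings, 1 sequence per protein, thresholds of 2-fold and of 25% higher or 20% lower, and filters on coverage and reads. Members were also taken without the 50S and 30S matches, and with the sequences known by orthology only. The ratio step was run on simulated Poisson counts with planted changes, which checks the code only. Such counts hold no PCR duplicates and no spread between pools. Promoter and protein sequences were not analysed here. Computations ran in Python 3.11.15 (scipy 1.17.1, numpy 2.4.6, pandas 2.3.3; figures with matplotlib 3.10.9).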

Additional observations from a re-analysis of the deposited data

How the results depend on the processing

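No paired analysis was possible because each group had 1 library. Of 150 recomputed values, 104 stayed the same by the spread or the 1.5 times limit used, 40 moved and 6 reversed. Scaling decided spring over winter: the median log2 ratio turned to 0.14 with a median ratio of 1 and 0.10 with totals without royal jelly and the most abundant sequences, and the summed ratio to 1.09 and 1.06. In retired over winter these scalings gave medians of -0.095 and -0.16 and summed ratios of 0.942 and 0.903, and the first gave a summed ratio of 0.866 in retired over spring. The large minus small difference was -0.083 in spring over winter and -0.040 in retired over winter with coverage of at least 0.5, and -0.0067 in retired over winter with no minimum. Counts past 1.5-fold in spring over winter (3 higher, 6 lower) became 6 and 10 with a minimum of 1 RPKM, 7 and 11 with none, 8 and 2 with a median ratio of 1, 8 and 23 with the threshold of 25% higher or 20% lower, 1 and 1 at 2-fold, and 1 and 3 with coverage of at least 0.5. The higher count was 7 with the other totals and 1 with at least 100 reads in the pair. In retired over spring (0 and 3) they became 1 and 9 with a minimum of 1 RPKM or none and 1 and 16 with that lower threshold. The lower count was 1 with 1 sequence per protein and 0 at 2-fold, with that coverage or with 100 reads. In retired over winter (0 and 16) they became 5 and 27 with no minimum, 1 and 4 with a median ratio of 1, and 1 and 42 with that lower threshold. The higher count was 4 with a minimum of 1 RPKM, and the lower count 8 with the other totals, 2 at 2-fold and 10 with that coverage. Lower minima add sequences with few reads and the scalings multiply all ratios alike, and other causes were not tested. Coverage, several sequences per protein and 1 library per group limit what depth can show. The filters on coverage and on 100 reads were chosen after seeing the data. Leaving out the 50S and 30S matches and adding the sequences known by orthology only were not planned either.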
